A study of Rattus norvegicus with 18 samples.

Results

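Molecular chaperones are described here across 9 rat bone cell colonies: the small heat shock proteins Cryab, Hspb1 and Hspb8, the Hsp70 proteins Hspa5 and Hspa8, and the J-domain protein Dnajb1. A gene counted as measured if a probe set carried its symbol and no other. By that rule 5 of the 6 genes were measured, of 13811 genes named by a single symbol on the arrays. Their 7 probe sets all lay on the RAE230A array (chip A), and none lay on the RAE230B array (chip B). Hspa8, the constitutive cytosolic Hsp70, was covered only by a probe set that carried a second gene symbol as well, so no value is given for it.

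Each colony grew from 1 fetal rat calvaria cell, a cell of the developing skull roof, after single-cell sorting by flow cytometry. The 3 colony types had been defined by the submitters from marker transcripts: colonies with osteocalcin, a protein that mature osteoblasts lay down in bone, together with adipsin, a protease secreted by fat cells ("both"), colonies with osteocalcin alone ("osteocalcin"), and colonies with neither marker ("neither"). There were 3 colonies, numbered I to III, of each type, and each gave 1 array of either chip. All colonies, whatever their type, were cultured for 4 weeks at 37 C and 5% CO2 in α-MEM with fetal bovine serum, ascorbic acid, BGP and Dex, as the labels abbreviate the last pair. RNA came from 100 to 300 cells per colony and was amplified by a small-sample protocol before labelling. Strain, fetal age and whether the colonies of a type shared a cell preparation are not given in the sources used here, and p-values measure the spread between colonies. The question is whether chaperone transcripts differ between the marker types.

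Chaperones bind proteins that are unfolded or partly folded and keep them from clumping. Small heat shock proteins hold such clients without using ATP, Hsp70 proteins fold and release them in cycles driven by ATP, and J-domain proteins hand clients to Hsp70 and start its ATP hydrolysis. Heat shock factor 1 switches on many of the cytosolic members under stress through heat shock elements in their promoters, whereas Hspa5 (BiP), the Hsp70 of the endoplasmic reticulum (ER), is induced through ER stress elements by the unfolded protein response. Cells that secrete much collagen, such as osteoblasts, carry a heavy ER folding load, and Cryab and Hspb1 are abundant in muscle, where they bind desmin and actin filaments.

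The promoters of 4 measured members were found in RefSeq (rat build GRCr8) and are shown because they carry these elements. Each runs 5′ to 3′ from 250 bases before to 50 bases after the gene's start, and capitals mark a heat shock element or an ER stress element.
Hspb1 (chr12:26432252-26432551, minus strand): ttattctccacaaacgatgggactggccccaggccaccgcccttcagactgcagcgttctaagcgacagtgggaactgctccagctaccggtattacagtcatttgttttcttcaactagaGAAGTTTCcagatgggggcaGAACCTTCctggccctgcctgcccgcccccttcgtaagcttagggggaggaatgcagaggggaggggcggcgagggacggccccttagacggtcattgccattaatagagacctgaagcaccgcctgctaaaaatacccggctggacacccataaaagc
Hspb8 (chr12:45837058-45837357, plus strand): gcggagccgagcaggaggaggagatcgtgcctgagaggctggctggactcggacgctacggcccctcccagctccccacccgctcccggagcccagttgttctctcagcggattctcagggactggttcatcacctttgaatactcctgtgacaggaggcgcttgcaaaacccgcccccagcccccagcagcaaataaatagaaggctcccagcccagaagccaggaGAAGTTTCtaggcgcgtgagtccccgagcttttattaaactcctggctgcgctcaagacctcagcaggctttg
Hspa5 (chr3:38452766-38453065, plus strand): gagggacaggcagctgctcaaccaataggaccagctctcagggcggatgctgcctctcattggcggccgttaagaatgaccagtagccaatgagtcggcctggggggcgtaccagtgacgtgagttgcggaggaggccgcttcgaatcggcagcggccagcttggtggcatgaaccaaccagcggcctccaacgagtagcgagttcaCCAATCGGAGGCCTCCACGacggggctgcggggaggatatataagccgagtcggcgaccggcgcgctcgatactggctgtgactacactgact
Dnajb1 (chr19:41431092-41431391, minus strand): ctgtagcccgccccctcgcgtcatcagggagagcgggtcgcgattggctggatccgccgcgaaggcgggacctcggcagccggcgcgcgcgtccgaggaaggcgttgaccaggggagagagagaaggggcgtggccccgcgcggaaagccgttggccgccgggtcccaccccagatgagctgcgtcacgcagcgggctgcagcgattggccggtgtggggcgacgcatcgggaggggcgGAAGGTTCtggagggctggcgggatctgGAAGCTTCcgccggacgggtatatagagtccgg
The 2-unit heat shock element was searched as GAANNTTC or TTCNNGAA on both strands. It was found in 15.85% of 33469 rat promoters of the same length. Counted from the start of the gene, Hspb1 held it at -129 to -122 and at -109 to -102, Hspb8 at -23 to -16, and Dnajb1 at -11 to -4 and at 18 to 25. The Hspa5 window held no match to these letters. The longer 3-unit form, in which GAA and TTC alternate 3 times with NN between them, was in none of the 4 windows and in 0.798% of all promoters. The window of the unmeasured Hspa8, not printed here, held that form at -213 to -201 and at -55 to -43. Hspa5 alone among the 4 held the ER stress element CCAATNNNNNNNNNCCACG, at -43 to -25, which matched 22 promoters in all (0.0657%).

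On the deposited scale 17 of the 18 arrays had a 2%-trimmed mean signal of 1500, and the chip A array of osteocalcin I had 64.4, so every array was rescaled to 1500. The other 8 chip A arrays were run together on a different day. The signals below are on the rescaled linear scale, and tests used log2 of signal plus a pseudocount of 238.7. The osteocalcin label could not be checked on chip A. Bglap, the osteocalcin transcript, failed the filter on dim signals and lay on average at the 0.854th percentile of the chip. Its signal was 299 in neither III and at most 59.5 in the other colonies, and a probe set this dim cannot decide whether the label holds. Cfd, the adipsin transcript, failed the filter as well, at the 20.5th percentile. The other osteoblast genes were mixed. Col1a1 was bright, at the 99.5th percentile, as was Spp1, at the 99.9th, and Dmp1 passed at the 64.4th percentile of chip B. Alpl (4.72nd percentile), Ibsp (19.9th) and Phex (5.92nd) failed the filter. The array pair of neither II stood apart in the control probe sets for GAPDH, with a log2 ratio of 3′ to 5′ signal of 1.06 on chip A, where the other 8 colonies had 3.11 to 3.79, and with a log2 3′ level of 10.3, where the others had 14.1 to 16.1. On chip B its ratio was 1.08 and its 3′ level 11.3, against at least 3.54 and 15.7 in the other colonies. Each colony is a bulk sample, in which fewer cells of a kind and less RNA per cell cannot be told apart.

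Cryab, which encodes alpha-B crystallin, was the brightest member. Its signal was 55015, 14251 and 210363 in both colonies I to III, 112347, 174925 and 215722 in osteocalcin colonies, and 134276, 107991 and 245801 in neither colonies. The osteocalcin and neither colonies covered the same range, and among the both colonies I and II lay below all 6 of them while III lay near the top. Cryab ranked 4th to 67th of the 15923 chip A probe sets in 8 colonies and 366th in both II. Its mean log2 level was 15.75 ± 1.93 in both, 17.31 ± 0.48 in osteocalcin and 17.22 ± 0.61 in neither colonies (SD, n = 3 each). Both minus osteocalcin was -1.55 on the log2 scale (SE 0.766, 95% interval -3.21 to 0.10, limma adjusted p = 1.00), a 2.93-fold lower level that did not pass the test. Both minus neither was -1.47 (SE 0.766, interval -3.13 to 0.19, adjusted p = 0.539), and osteocalcin minus neither was 0.08 (interval -1.57 to 1.74, adjusted p = 0.986). Leaving out both II moved both minus osteocalcin to the value nearest 0 among the fits that leave out a colony, -0.59, and leaving out both III moved it to -2.52. Both minus neither was -0.50 without both II, -2.43 without both III and -0.88 with quantile normalization.

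Hspb1 encodes the small heat shock protein Hsp25/27, which also binds actin. Its signal was 33817, 6368 and 141853 in both colonies, 32042, 45810 and 55970 in osteocalcin colonies, and 41366, 46407 and 42515 in neither colonies. Both III was the highest and both II the lowest of all 9 colonies, while the other 7 lay within a narrow band. The mean log2 level was 14.95 ± 2.22 in both, 15.42 ± 0.41 in osteocalcin and 15.41 ± 0.09 in neither colonies (SD, n = 3 each). Both minus osteocalcin was -0.46 (SE 0.797, interval -2.19 to 1.26, adjusted p = 1.00), both minus neither was -0.46 (interval -2.18 to 1.27, adjusted p = 0.859) and osteocalcin minus neither was 0.0034 (interval -1.72 to 1.73, adjusted p = 0.999). Without both II the first turned to 0.67, and both minus neither turned to 0.67 as well.

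Hspb8 works with the co-chaperone Bag3 in clearing misfolded proteins by autophagy. Its brighter probe set had signals of 6727, 1460 and 6683 in both colonies, 4922, 3476 and 5021 in osteocalcin colonies, and 3161, 2431 and 3926 in neither colonies. Both II was again the lowest colony, and both I and III were the highest. Both minus osteocalcin was -0.10 (SE 0.492, interval -1.16 to 0.96, adjusted p = 1.00), both minus neither was 0.37 (interval -0.69 to 1.44, adjusted p = 0.808), and osteocalcin minus neither was 0.47 (interval -0.59 to 1.54, adjusted p = 0.833). Without both II, both minus osteocalcin turned to 0.58. Both minus neither was 1.05 without both II, 0.031 without both I and 0.036 without both III. The second probe set failed the filter. Its signals were 558, 258 and 447 in both colonies, 382, 132 and 367 in osteocalcin colonies, and 1196, 387 and 527 in neither colonies. Its osteocalcin colonies all lay below its neither colonies, by a small margin at the nearest, which is opposite in direction to the first probe set. Over the 9 colonies it followed the first only loosely (Pearson r = 0.202, Spearman rho = 0.30).

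Hspa5 had signals of 33474, 27964 and 44882 in both colonies, 46717, 34742 and 55796 in osteocalcin colonies, and 94762, 17753 and 19538 in neither colonies. The neither colonies held both extremes: I was the highest of the 9 colonies, and II and III were the lowest pair. The mean log2 level was 15.10 ± 0.34 in both, 15.46 ± 0.34 in osteocalcin and 14.98 ± 1.35 in neither colonies (SD, n = 3 each). Both minus osteocalcin was -0.37 (SE 0.565, interval -1.59 to 0.86, adjusted p = 1.00), osteocalcin minus neither was 0.48 (interval -0.74 to 1.70, adjusted p = 0.853), and both minus neither was 0.11 (interval -1.11 to 1.34, adjusted p = 0.955). Leaving out neither I moved both minus neither to 0.89. Osteocalcin minus neither was 1.26 without neither I, 0.059 without neither II and 0.13 without neither III. Both minus neither turned to -0.31 without neither II, to -0.24 without neither III and to -0.068 without both III.

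Dnajb1 (Hsp40), the inducible J-domain partner of cytosolic Hsp70, was read by a pair of probe sets. The brighter one had signals of 3791, 5615 and 3593 in both colonies, 4774, 3275 and 1710 in osteocalcin colonies, and 3477, 2463 and 1166 in neither colonies. All 3 both colonies lay above all 3 neither colonies, the lowest of the first by a small margin over the highest of the second. The difference of 0.89 (SE 0.440, interval -0.06 to 1.85), a 1.86-fold higher level in both colonies, did not pass the test (adjusted p = 0.531). Both minus osteocalcin was 0.47 (interval -0.49 to 1.42, adjusted p = 1.00), and osteocalcin minus neither was 0.43 (interval -0.52 to 1.38, adjusted p = 0.830). The dimmer one had signals of 947, 699 and 1431 in both colonies, 1336, 1614 and 1684 in osteocalcin colonies, and 909, 1489 and 355 in neither colonies. Its mean was highest in the osteocalcin colonies, though all groups overlapped, with a both minus osteocalcin difference of -0.53 (adjusted p = 1.00), opposite in sign to the first probe set, and differences of 0.75 (SE 0.419, adjusted p = 0.700) for osteocalcin minus neither and 0.22 (adjusted p = 0.874) for both minus neither. The last turned to -0.20 without neither III and to -0.0018 without both III. Over 9 colonies the pair of probe sets had r = 0.234 and rho = -0.267, so the order of the colonies by Dnajb1 depends on the probe set.

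**Figure D1:**
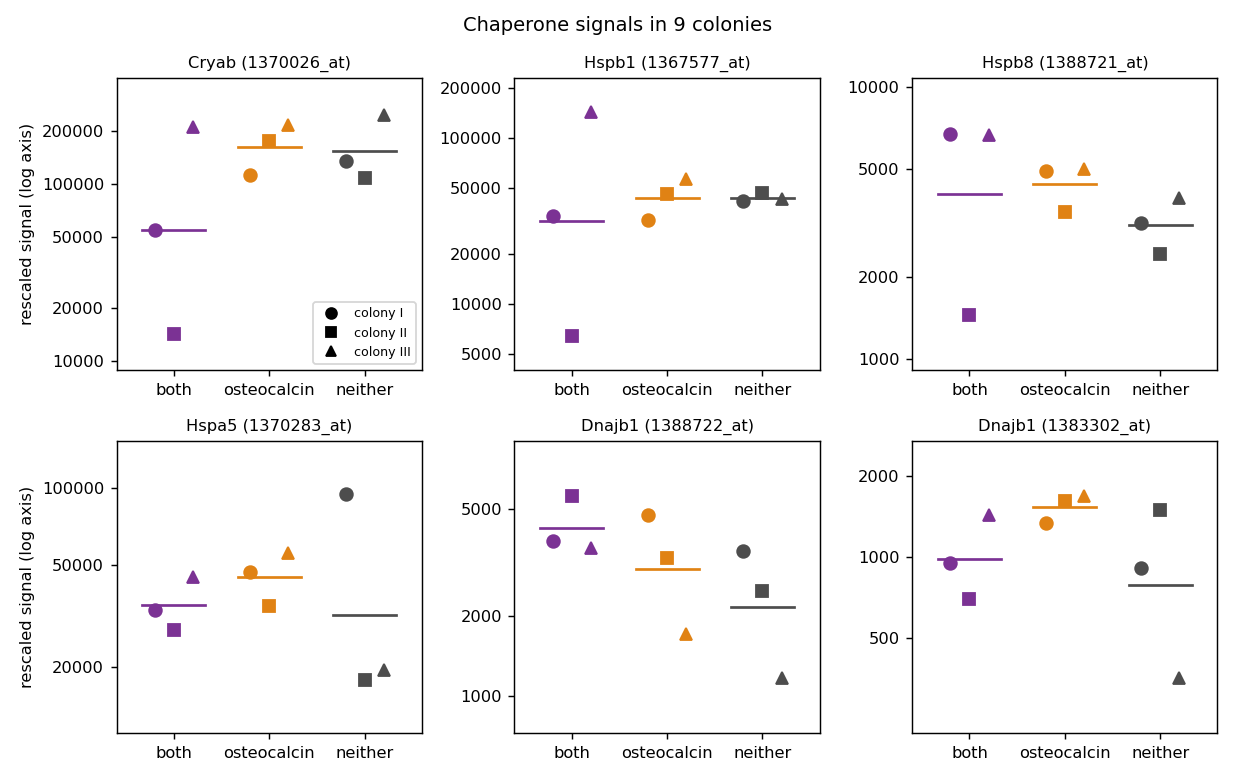
Rescaled signal (log axis, no unit) of the 6 member probe sets that passed the filter, by colony type; each point is 1 colony (circle I, square II, triangle III) and each line is the geometric mean of 3 colonies. Both II is lowest for Cryab (14251), Hspb1 (6368) and Hspb8 (1460), and neither I is highest for Hspa5 (94762).

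None of the 6 probe sets tested passed an adjusted p of 0.05 in any comparison of 2 types, and none had an unadjusted p under 0.05. Over all 19312 probe sets tested by limma, 0% passed the adjusted threshold in both against osteocalcin, 0% in osteocalcin against neither and 0% in both against neither. Unadjusted p was under 0.05 in 3.39%, 7.5% and 9.75% of them, in the same order of comparisons. Groups did not overlap for 0 of the 6 member probe sets in both against osteocalcin (10.1% of all probe sets), 0 in osteocalcin against neither (12.2%) and 1, that of Dnajb1, in both against neither (14.6%). For a difference among the 3 types of any kind, the members' adjusted p ran from 0.735 for Cryab to 0.952 for Hspb1, and again 0% of all probe sets passed, with 7.06% at an unadjusted p under 0.05. By direction, 5 of 6 member probe sets were lower in both than in osteocalcin colonies. In osteocalcin against neither 6 of 6 were higher, and in both against neither 4 of 6 were. Over all probe sets 48.8%, 51.9% and 50.8% were higher in the first type, with median differences of -0.01, 0.03 and 0.01. The 6 of 6 include Hspb1 at 0.0034, Cryab at 0.08 and a pair of probe sets for Dnajb1. The Hspb8 probe set that failed the filter went the other way. The comparisons share colonies, so these counts are not independent of each other. The median standard error of a difference over all probe sets was 0.497, and those of Cryab, Hspb1 and Hspa5 were larger.

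**Figure D2:**
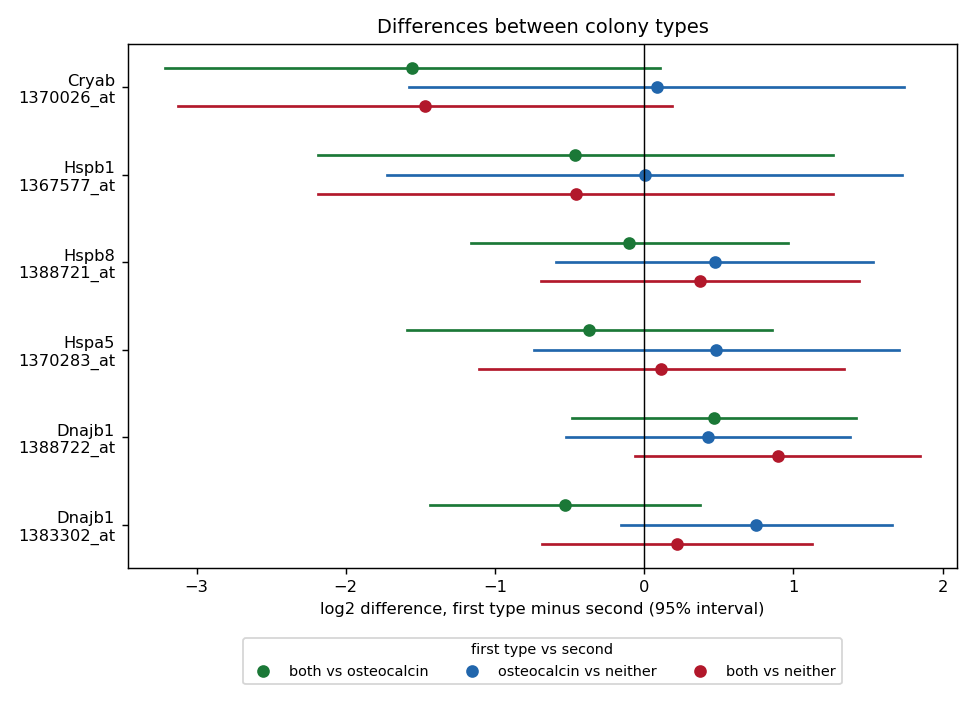
Log2 differences between colony types (x axis, first type minus second) for the 6 member probe sets, with points at the limma estimate and bars for the unadjusted 95% interval (n = 3 colonies per type). All 18 intervals include 0, and the lowest estimate is that of Cryab in both against osteocalcin (-1.55).

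The chip A arrays were washed on 2 fluidics stations, per the deposited array records. Station 1 held the 3 osteocalcin colonies with both I and II, and station 2 held both III with the 3 neither colonies. Within station 1, both I and II minus osteocalcin was -2.52 for Cryab (SE 0.531, adjusted p = 0.0949), -1.54 for Hspb1 (SE 0.579, adjusted p = 0.286) and -0.75 for the dimmer Dnajb1 probe set (SE 0.308, adjusted p = 0.320). Within station 2 the both arm was the single array of both III, which gives no spread of its own, so the SE rests on the neither colonies and assumes that both colonies vary alike. Both III minus neither was 1.70 for Hspb1 (SE 0.763, adjusted p = 0.781), 1.04 for Hspb8 (SE 0.612, adjusted p = 0.820) and 0.46 for Cryab (SE 1.02, adjusted p = 0.956). No chip A station held osteocalcin and neither colonies together, so station and type cannot be told apart directly in that comparison. With station as a block, osteocalcin minus neither was 2.98 for Cryab and 3.25 for Hspb1, values that rest on the contrast of both I and II with both III. On chip B, station 1 held the 3 both colonies with neither I, and station 2 held the 3 osteocalcin colonies with neither II and III. Station and type thus cannot be told apart there in both against osteocalcin. Both against neither shares a chip B station only through neither I. The tested probe sets of Hspb9, Hspa14, Cct8 and Atf6, named below, lay on chip B.

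More of the members' variance lay within colony types than between them, which also held at the median of the chip A probe sets. The SD over 9 colonies lay at the 98.6th percentile of the chip A probe sets kept for Cryab, the 97.7th for Hspb1, the 78.9th for Hspa5, the 67.6th for Hspb8 and the 66.3rd and 51.7th for the probe sets of Dnajb1. Colony type held 34.6% of the variance of Cryab, 4.01% of Hspb1, 8.47% of Hspa5, 10.6% of Hspb8 and 35.3% and 35.7% for Dnajb1, against a chip A median of 23.7%. Among the both colonies III exceeded II by 22.3-fold for Hspb1 and 14.8-fold for Cryab, and I exceeded II by 4.61-fold for Hspb8. Among the osteocalcin colonies the members' highest and lowest signals differed by 1.26-fold to 2.79-fold (probe sets that passed the filter). Among the neither colonies Hspb1 spread by 1.12-fold, an SD at the 1.82nd percentile, whereas Hspa5 spread by 5.34-fold.

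Across the 9 colonies Cryab and Hspb1 ran together (r = 0.868, rho = 0.65), and r was 0.479 without both II and both I. Hspb1 and Hspb8 had r = 0.724 and rho = 0.30, and r turned to -0.417 without both II and both III, so that relation rests on those colonies. Cryab and Hspb8 had r = 0.573 (rho = 0.333). Cryab and Dnajb1 (brighter probe set, here and below) ran opposite (r = -0.676, rho = -0.75, and r = -0.624 without both II and both I), but the dimmer Dnajb1 probe set had r = 0.238 and rho = 0.20 with Cryab, so the sign depends on the probe set. Hspa5 had r of 0.19 to 0.31 with the other members. The median r over all pairs of chip A probe sets was -0.0014. All of these values share the same 9 arrays and their scaling, and they are given as a description.

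The genes most like each member were taken as the 3 with the highest r over the 9 colonies on chip A. For Cryab these were Zfp622 (0.960), Polr2h (0.955) and Chac1 (0.953), for Hspb1 Homer3 (0.933), Ercc1 (0.928) and Pam16 (0.913), and for Hspb8 Josd2 (0.925), Tgfb3 (0.889) and Nudt9 (0.883). For Hspa5 they were Ppp1r15a (0.944), which encodes the stress-induced regulatory subunit of the phosphatase that acts on eIF2-alpha, Slc41a3 (0.924) and Cdkn1a (0.922), the cell cycle inhibitor p21. For Dnajb1 they were Exosc7 (0.975), Fbxo3 (0.974) and Ago1 (0.948). Each of these is the best match among the chip A genes compared, over 9 points.

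Muscle markers moved with the small heat shock proteins, and for Hspb1 other marker lists did so about as closely. Of 15 smooth and skeletal muscle genes listed, 12 passed the filter, and their mean log2 level was 11.68, 10.35 and 12.38 in both colonies I to III, 11.60, 12.23 and 12.89 in osteocalcin colonies, and 10.77, 11.33 and 12.36 in neither colonies. Both II was the lowest for the muscle list, as it was for Cryab, Hspb1 and Hspb8. The list mean had r = 0.780 and rho = 0.80 with Cryab (r = 0.805 without both II and both I), r = 0.715 with Hspb1 (0.499 without both II and both III), r = 0.697 with Hspb8 (0.609 without both II and both I), r = -0.642 with Dnajb1 and r = -0.02 with Hspa5. Cryab had r over 0.5 with 8 of the 12 muscle genes, with a median of 0.608, against 16.0% of 10077 other genes with a median of 0.0087. The smooth muscle actin gene Acta2 lay at the 98.6th percentile of chip A, while the skeletal muscle regulators Myod1 and Myog failed the filter, at the 4.18th and 26.1st percentiles. The part of muscle-type cells in the Cryab and Hspb1 levels was not tested. Cryab also had r = 0.711 with the mean of the 3 osteoblast genes tested, and r = -0.14 without both II and both I. Hspb1 had r = 0.722 with that mean and 0.675 with the adipocyte mean, and -0.017 and 0.056 without both II and both III. With the mean of 3 chondrocyte genes Hspb1 had r = 0.176, and 0.821 without both II and both III.

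**Figure D3:**
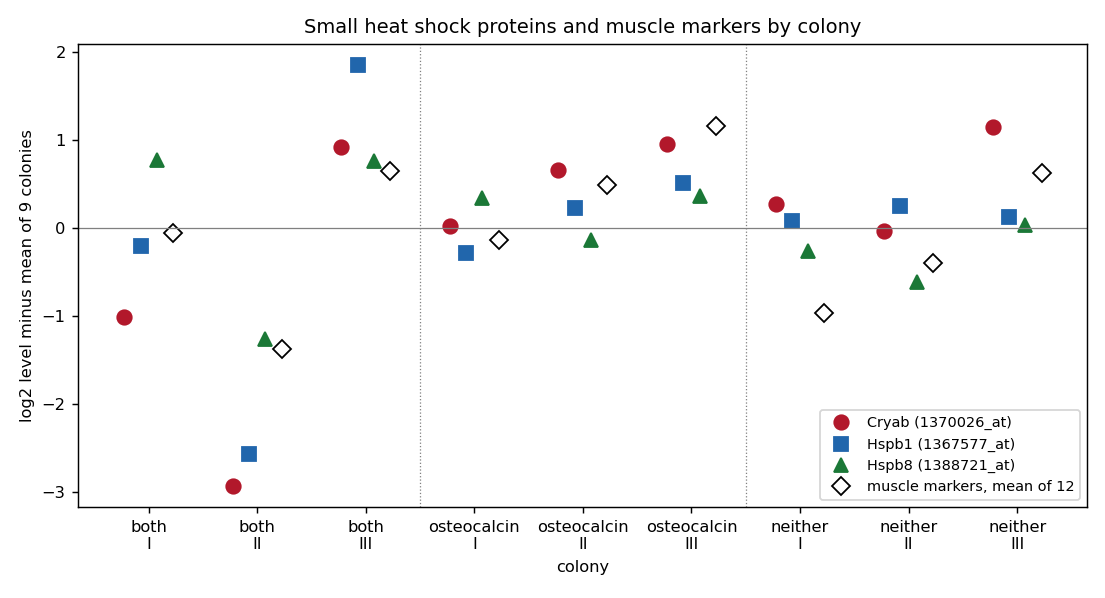
Log2 level minus the mean of the 9 colonies (y axis) for Cryab, Hspb1, Hspb8 and the mean of 12 muscle markers in each colony (x axis, 1 array per colony). All 4 measures are at their lowest in both II, and in both III all 4 lie above the mean of the 9 colonies.

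Hspa5 ran with other genes of the ER, and with some other lists too. The mean log2 level of 28 ER chaperone and unfolded protein response genes was 12.52, 12.16 and 12.35 in both colonies I to III, 12.48, 12.26 and 12.49 in osteocalcin colonies, and 12.66, 11.87 and 11.43 in neither colonies. As for Hspa5, neither I was the highest colony and neither II and III were the lowest. Hspa5 had r = 0.844 and rho = 0.817 with this mean, and r = 0.852 without neither I and neither II. Without neither II alone r was 0.823. The mean of the 2 adipocyte markers that passed the filter, Adipoq and Pparg, ran about as closely with Hspa5 (r = 0.724, rho = 0.85, and r = 0.856 without neither I and neither II). Their mean log2 level ranged from 9.47 to 11.1 in both, 10.2 to 10.5 in osteocalcin and 9.25 to 10.7 in neither colonies, and the other 5 of 7 listed adipocyte genes failed the filter. The co-chaperone mean had r = 0.637 (0.837 without neither I and neither II) and the Hsp90 and chaperonin mean r = 0.561 (0.762). The part of adipocyte-type cells in the Hspa5 levels was not tested. Hspa5 had r over 0.5 with 13 of the 28 genes, with a median of 0.464, against 11.2% of 10077 other genes with a median of 0.0289. For the Hsp90 and chaperonin list this was 6 of 12, with a median of 0.464, and for the co-chaperones 7 of 16. Dnajb1 likewise had r over 0.5 with 13 of the 28 ER genes (median 0.219), against 20.6% of the other genes. Of the ER genes, the highest r with Hspa5 was that of Ddit3 (0.786), the stress transcription factor CHOP. Calr (0.760), the ER lectin chaperone calreticulin, and P4hb (0.755), a protein disulfide isomerase, followed. Sel1l, of the ER degradation machinery, ran opposite to Hspa5 (-0.749). RNA quality moved with Hspa5 on 1 of 2 measures: the log2 ratio of 3′ to 5′ beta-actin signal, which was 2.51 in neither I and reached 3.87 in the highest colony, had r = -0.748 and rho = -0.633 with Hspa5, and the GAPDH ratio had r = 0.386. Neither II, the lowest Hspa5 colony, was the one with the outlying GAPDH signals. The part of RNA quality in the Hspa5 levels was not tested.

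**Figure D4:**
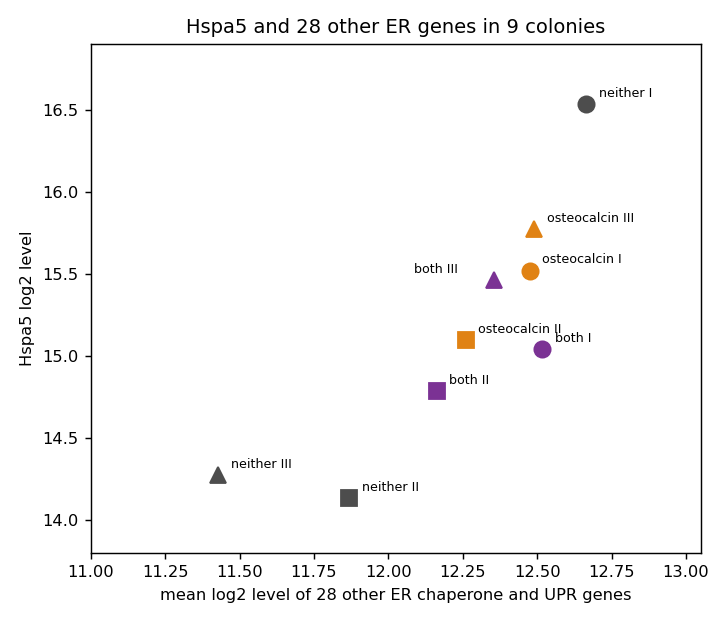
Hspa5 log2 level (y axis) against the mean log2 level of 28 other ER chaperone and unfolded protein response genes (x axis), 1 point per colony. Neither I lies at the upper right and neither II and III at the lower left, with the both and osteocalcin colonies between (r = 0.844 over 9 colonies).

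Other chaperone genes were counted in 7 lists, with 1 probe set per gene, and none passed the test in any comparison. Of 4 small heat shock protein genes tested besides the members, 2 were higher and 2 lower in both than in osteocalcin colonies. Hspb7, abundant in heart and muscle, was lower in osteocalcin than in neither colonies without overlap (-0.58, SE 0.378, adjusted p = 0.734), and Hspb9 was 1.10 higher in both than in neither (SE 0.565, adjusted p = 0.533). Of 5 cytosolic and mitochondrial Hsp70 and Hsp110 genes, the stress-inducible Hspa1a differed by -0.83 for osteocalcin minus neither (SE 0.354, adjusted p = 0.624). Its groups did not overlap, with a mean log2 level of 11.19 ± 0.20 in osteocalcin and 12.01 ± 0.31 in neither colonies (SD, n = 3 each). Hspa14, which works at the ribosome, was 1.23 higher in both than in neither (SE 0.464, adjusted p = 0.446).

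Among 17 J-domain genes the counts were near even, with 11 higher and 6 lower in both than in osteocalcin, 8 higher and 9 lower in osteocalcin than in neither, and 8 higher and 9 lower in both than in neither. The mitochondrial Dnaja3 differed by -0.98 for both minus osteocalcin (adjusted p = 1.00) and by -1.002 for both minus neither (adjusted p = 0.448), without overlap in either. The neither colonies were uneven in the lists that follow, and the counts against them are also given without 1 neither colony. Of 16 co-chaperones of Hsp70 and Hsp90, 12 were higher in osteocalcin than in neither colonies (median 0.37), and 4 of the 16 had an unadjusted p under 0.05 against 7.5% of all probe sets. It was 12 of 16 without neither II and 10 of 16 without neither III (median 0.19). Hspbp1, a nucleotide exchange factor of Hsp70, had the smallest p of that list in this comparison, with a difference of 1.69 (SE 0.441, adjusted p = 0.610). Its signals in neither colonies were dim, at 630, 92.4 and 268, below the median of their arrays. Hspbp1 thus passed the filter only through the other types. Of 12 Hsp90 and chaperonin genes, 12 were higher in both than in neither colonies, with a median of 0.24 against 0.01 over all probe sets, and 1 of the 12 had an unadjusted p under 0.05, against 9.75% of all probe sets. That count rests on neither III: without it 6 of 12 were higher (median 0.0027), and without neither II 12 of 12 were. The 1 gene was Cct8, a subunit of the cytosolic chaperonin (1.03, SE 0.402, adjusted p = 0.448), and its other probe set, which failed the filter, differed the other way by -1.22.

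Of the 28 ER genes, 22 were higher in osteocalcin than in neither colonies (median 0.39) and 19 in both than in neither (median 0.20), while 17 were lower in both than in osteocalcin (median -0.11). Neither I had the highest mean of these genes among the 9 colonies, and the direction against neither colonies came from II and III. Of that pair, II had the outlying GAPDH signals and, on chip B, the outlying beta-actin ratio. For osteocalcin against neither the count was 24 of 28 without neither I (median 0.63), 20 without neither II (median 0.33) and 16 without neither III (median 0.10). For both against neither it was 20 without neither I (median 0.46), 16 without neither II (median 0.058) and 16 without neither III (median 0.049). The part of RNA quality in these counts was not tested. Xbp1, a transcription factor of the unfolded protein response, had the smallest p in both against neither. Its signal was 5943, 6020 and 5055 in both colonies and 4280, 1245 and 1169 in neither colonies, a difference of 1.48 (SE 0.422, adjusted p = 0.410) without overlap. Atf6, an ER stress sensor, was 1.53 higher in osteocalcin than in neither colonies (SE 0.493, adjusted p = 0.610), and its other probe set differed in the opposite direction. Atf4 differed by -1.04 for both minus osteocalcin (SE 0.587, adjusted p = 1.00). Of 3 genes of heat shock factors and their regulators, Hsf1, which encodes the factor that binds heat shock elements, was 1.22 higher in osteocalcin than in neither (SE 0.419, adjusted p = 0.611) and 1.06 higher in both than in neither (adjusted p = 0.459). Its signal was 798, 818 and 1110 in both colonies, 1363, 693 and 1146 in osteocalcin colonies, and 264, 538 and 178 in neither colonies, so that the neither colonies overlapped with no colony of the other types. Over all probe sets 12.2% did not overlap in osteocalcin against neither and 14.6% in both against neither. In the neither colonies Hsf1 was dim, at the 11.7th to 38.2nd percentile of the array. It thus passed the filter only through the other types, and its lack of overlap is no independent support.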

How the data were processed

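Chip A and chip B arrays (9 each) of 9 colonies were analysed. The deposited signal intensities were made with MAS5, per the submitters' processing notes, which give no version. Array records deposited by the authors gave the fluidics station and day. Each array was rescaled to a 2%-trimmed mean of 1500, and log2(signal + pseudocount) was taken with the median over 9 arrays of the 25th percentile (238.7 on chip A, 336.2 on chip B), which understates changes of dim probe sets. Probe sets above the array median on at least 3 of 9 arrays were kept, 9425 on chip A and 9887 on chip B, without 57 controls per chip.

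Each chip was fitted as 3 group means in R 4.3.3, using limma 3.58.1 with moderated two-sided tests and a trend of variance on intensity. Benjamini-Hochberg adjustment ran over the p-values of chip A and chip B jointly. Calls needed an adjusted p under 0.05. Genes take their names from platform annotation. All members were named, with the smallest-p gene of each list and comparison and 3 genes most like each member. Other genes named (Xbp1 and Hsf1 signals, ER genes most like Hspa5, markers) are examples chosen after their values were seen. Members and lists were chosen with earlier results of these data known. Python 3.11.15 with matplotlib 3.10.9 drew the figures. The fit was tested on simulated data.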

Additional observations from a re-analysis of the deposited data

How the results depend on the processing

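The precision is limited by 3 colonies per type. Over all alternatives, no member passed the threshold; of 354 member values recomputed, 320 kept their direction and 34 turned. Osteocalcin against neither had 0 probe sets called in every alternative. Beside 0 called in the other comparisons, signals as deposited gave 1 in both against osteocalcin and 1 for any difference, a doubled pseudocount 2 and 1, and array weights 87, 10 for both against neither and 74 for any difference. The fit within 1 fluidics station, on the 9425 chip A probe sets alone and without both III, gave 38 in both against osteocalcin, while leaving out both III over all 19312 gave 0. Leaving out 1 colony gave 0 to 1 in both against osteocalcin, 0 to 3 in both against neither and 0 to 1 for any difference. Leaving out a neither colony from the list counts was chosen after seeing the data. The causes were not tested, except that signals as deposited keep osteocalcin I on its dim scale.

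With signals as deposited, both minus osteocalcin turned to 0.98 for Hspb1, 1.10 for Hspa5, 0.27 for the dimmer Dnajb1 probe set and 1.07 for Hspb8, and osteocalcin minus neither turned to -1.44 for Hspb1, -1.41 for Cryab, -0.98 for Hspa5, -0.70 for Hspb8, -0.053 for the dimmer and -0.74 for the brighter Dnajb1 probe set. Quantile normalization turned osteocalcin minus neither of Hspb1 to -0.21. Array weights turned both minus osteocalcin of Hspb8 to 0.26, osteocalcin minus neither of Hspa5 to -0.017 and of the brighter Dnajb1 probe set to -0.083, and both minus neither of Hspa5 to -0.54. Station as a block, like the fit within 1 station, turned both minus neither to 1.70 for Hspb1 and 0.46 for Cryab. Leaving out 1 colony, both minus osteocalcin ran from -1.54 to 0.67 for Hspb1 and -0.44 to 0.58 for Hspb8, osteocalcin minus neither from -0.18 to 0.22 for Hspb1 and -0.17 to 0.43 for Cryab, and both minus neither from -1.54 to 0.67 for Hspb1, -0.31 to 0.89 for Hspa5 and -0.20 to 0.57 for the dimmer Dnajb1 probe set.

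The labels link colonies of different types only by number, and whether same-numbered colonies shared a preparation is not given. On chip A, same-numbered deviations had r of 0.274, -0.15 and 0.134 in both against osteocalcin. In osteocalcin against neither they had 0.17, -0.139 and 0.158. All were positive in both against neither, at 0.0839, 0.244 and 0.325 (0.0576, 0.108 and 0.189 on chip B). Not every pair was over 0.1, and these values do not settle whether the colonies are paired. With the replicate block, 2 probe sets were called in both against osteocalcin and 1 for any difference, and no member changed its call.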
